A study of Homo sapiens with 8 samples.

Results

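Dipyridamole alone was compared with a control treatment in SK-Hep1, an established human line of liver tumour origin with endothelial traits. The comparison took 4 of the 8 RNA sequencing samples of the study: control cells and cells with ectopic SLC29A2 expression (called SLC29A2 cells here), each given either the control treatment or dipyridamole. No library that received sorafenib entered it. The labels name SK-Hep1 as the line, "control" or "SLC29A2-expressing" as the genotype, and "control" or "dipyridamole" as the treatment. The sources used here give no dose, duration or vehicle, nor the promoter of the SLC29A2 construct and whether the cells are a clone or a pool. Each of the 8 conditions of the study is 1 library, so the 2 libraries on each side differ in cell type and are no repeats of a condition. Each gene was compared within each cell type, and a gene was kept where its FPKM (fragments per kilobase of gene, scaled to sequencing depth) averaged 1 or more over these 4 libraries. That left 13674 of 58302 genes. The libraries are called control-cell control, control-cell dipyridamole, SLC29A2-cell control and SLC29A2-cell dipyridamole below.

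Dipyridamole is a vasodilator and platelet inhibitor. It blocks the equilibrative nucleoside transporters, above all the product of SLC29A1 and more weakly that of SLC29A2, so that adenosine stays outside the cell and nucleoside salvage is held back. It also inhibits several cyclic nucleotide phosphodiesterases, the enzymes that break down cAMP and cGMP, and in other cancer cells it has been found to hold back the processing of SREBP, the factor behind cholesterol synthesis genes. A proliferating culture carries a set of E2F-driven replication genes and a later set of mitotic genes, and cells under amino acid, haem or unfolded protein stress raise ATF4 and its targets.

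SLC29A2 itself (ENSG00000174669, chr11:66362521-66372214 on GRCh38, minus strand) was 7.81 and 1477 FPKM under the control treatment and 7.59 and 2054 FPKM under dipyridamole, control cells first in each pair, as in all pairs of values that follow. The level matched the genotype label in all 4 libraries. Library totals were 14070000 to 16690000 reads, recovered from the FPKM values, at which 1 read in a gene of 2 kb is 0.03 to 0.0355 FPKM. The control-cell dipyridamole library stood apart: genes of the mitochondrial genome held 5.74% of its reads against 3.71% to 4.54% in the other 3, and nuclear genes outside the protein-coding class held 2.48% against 1.6% to 1.93%. Of hepatocyte markers, 1 of 12 reached the filter (SERPINA1), and APOA1, APOA2, APOB, TTR, FGA, FGB, CYP3A4 and TAT were listed at 0 in all 4 libraries. Endothelial genes were partly present, with 3 of 12 past the filter (EGFL7, ROBO4 and TIE1), while PECAM1, CDH5 and VWF stayed under 1 FPKM. No leukocyte marker of 10 passed.

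Replication genes fell as a block in this comparison, and the sequence in front of some of them is shown because it holds the letters that E2F factors are known to read. The motif TTTNNCGC, searched on both strands in the 250 bases before the RefSeq start (GRCh38.p14), was found for 14 of the 26 replication genes with a promoter in the table, which is 53.8%, against 5.93% of all 27305 promoters and 9.25% of the 9867 promoters of genes tested here. A match describes the letters and shows neither a bound site nor a cause. PCNA lies at chr20:5126623-5126872 on the minus strand, TYMS at chr18:657403-657652 on the plus strand, MCM6 at chr2:135876444-135876693 on the minus strand and E2F1 at chr20:33686386-33686635 on the minus strand. PCNA and TYMS are the replication genes with a match that the naming rule picked, and MCM6 and E2F1 were chosen after their values were seen, for holding the most matches, 4 each, some of them overlapping. Capitals mark the matches.
PCNA: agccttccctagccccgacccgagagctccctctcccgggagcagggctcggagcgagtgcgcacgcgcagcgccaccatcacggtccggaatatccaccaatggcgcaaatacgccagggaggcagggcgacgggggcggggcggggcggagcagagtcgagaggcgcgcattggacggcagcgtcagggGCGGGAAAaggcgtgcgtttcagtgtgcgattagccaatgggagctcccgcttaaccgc
TYMS: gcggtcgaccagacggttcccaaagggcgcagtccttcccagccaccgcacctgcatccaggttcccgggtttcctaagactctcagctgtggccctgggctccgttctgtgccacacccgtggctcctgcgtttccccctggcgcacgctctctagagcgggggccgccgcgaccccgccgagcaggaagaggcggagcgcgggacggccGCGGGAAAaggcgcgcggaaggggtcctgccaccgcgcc
MCM6: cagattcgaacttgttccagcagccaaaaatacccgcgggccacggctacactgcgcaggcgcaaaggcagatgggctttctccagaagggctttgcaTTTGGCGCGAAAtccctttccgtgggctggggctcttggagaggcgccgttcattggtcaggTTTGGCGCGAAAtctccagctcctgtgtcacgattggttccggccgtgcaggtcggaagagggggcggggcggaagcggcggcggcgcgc
E2F1: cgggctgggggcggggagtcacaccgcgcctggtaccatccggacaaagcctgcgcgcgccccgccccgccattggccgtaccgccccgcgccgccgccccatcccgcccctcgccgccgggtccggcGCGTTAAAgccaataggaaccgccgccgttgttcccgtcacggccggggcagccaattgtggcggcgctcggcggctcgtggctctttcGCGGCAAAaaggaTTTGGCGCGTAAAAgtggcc

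The genes that rose held 22 of 33 measured targets of ATF4, which reads composite C/EBP-ATF elements. TGATGNAA, on either strand, was present in 4 of the 30 promoters of this list (13.3%), in 3.19% of all promoters and in 1.28% of those of tested genes. CHAC1 (chr15:40953221-40953470 on the plus strand) and ASNS (chr7:97872409-97872658 on the minus strand) are shown with the match in capitals, ASNS chosen after its values were seen. In the other lists searched, the sterol response letters TCACNCCAC were in 1 of 24 cholesterol gene promoters (4.17%, all promoters 0.875%, tested genes 0.892%). The cAMP response element TGACGTCA was in 2 of 16 promoters of cAMP targets (12.5%, all promoters 1.77%, tested genes 3.01%). The antioxidant element TGACNNNGC was in 5 of 19 promoters of NRF2 targets (26.3%, all promoters 11%, tested genes 12.3%).
CHAC1: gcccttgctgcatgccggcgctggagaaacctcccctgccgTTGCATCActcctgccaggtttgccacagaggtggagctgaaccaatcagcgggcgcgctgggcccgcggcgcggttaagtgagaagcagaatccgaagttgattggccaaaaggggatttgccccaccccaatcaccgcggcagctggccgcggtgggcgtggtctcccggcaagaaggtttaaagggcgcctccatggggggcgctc
ASNS: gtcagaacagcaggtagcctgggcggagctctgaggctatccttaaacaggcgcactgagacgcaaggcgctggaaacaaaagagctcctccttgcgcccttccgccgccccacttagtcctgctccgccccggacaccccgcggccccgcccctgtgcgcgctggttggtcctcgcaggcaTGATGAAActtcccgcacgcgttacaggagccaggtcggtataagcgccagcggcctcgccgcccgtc

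Across the transcriptome, 1152 genes rose and 1069 fell under dipyridamole by limma at a Benjamini-Hochberg adjusted p under 0.05, which is 8.42% and 7.82% of the genes tested. A plainer count, with no test, found 247 genes at least 2-fold higher (1.81%) and 308 at least 2-fold lower (2.25%) in both cell types, on the log2(FPKM + 1) scale used for every difference here. All differences are dipyridamole minus control treatment, a pair of them gives control cells first, and a single one is the mean of the pair. The median difference over all genes was 0.07 in control cells, -0.05 in SLC29A2 cells and 0.02 in the mean. Genes of the protein-coding class made up 91.3% of those that fell and 77.3% of those that rose, against 84.2% of those tested. The higher share of reads outside protein-coding genes in the control-cell dipyridamole library moves with that difference, and its part in it was not tested. The fit has 1 residual degree of freedom, which also holds any difference of the response between the cell types, so its p-values rest almost wholly on the spread shared across genes (98.39 prior degrees of freedom). Fitting all 8 libraries of the study for the same contrast, with 3 residual degrees of freedom, gave 1032 genes that rose and 1104 that fell. Those 3 degrees also hold any difference between the cell types in the responses to sorafenib and to both drugs. A call can thus be lost through the libraries that received sorafenib. Each library left out of that wider fit lowered the counts: 288 rose and 413 fell without the control-cell control library, 417 and 535 without the control-cell dipyridamole library, 371 and 382 without the SLC29A2-cell control library, and 184 and 300 without the SLC29A2-cell dipyridamole library. Where a gene below is said to lose its call, it is with the named library left out of the 8-library fit. Beside the count of a list, the counts without each library stand in brackets in the same order, from the control-cell control to the SLC29A2-cell dipyridamole library. They count members that pass in that fit, which need not be those that passed in the fit of 4 libraries. Where control and treated values of a gene are said to lie apart, this only describes the 4 libraries. It adds no support to a call, since most genes were named for their difference. The share of all genes whose values lie apart was not counted.

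**Figure D1:**
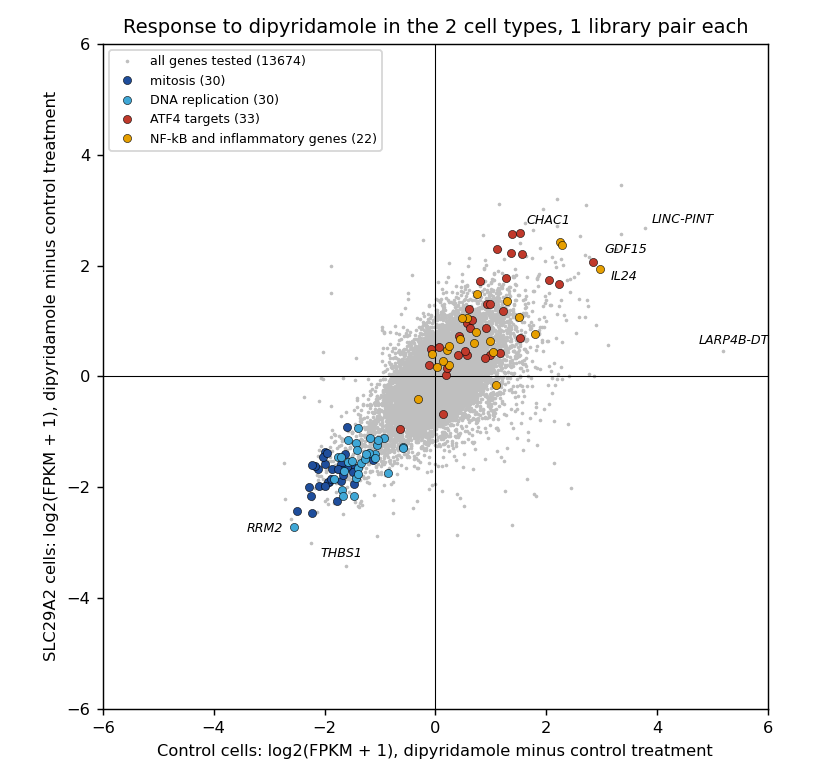
Differences in log2(FPKM + 1), dipyridamole minus control treatment, for each of 13674 genes, in control cells (x axis) and SLC29A2 cells (y axis), 1 library pair per axis. All 60 dots of the DNA replication and mitosis lists lie in the lower left quadrant, and 29 of 33 ATF4 targets lie in the upper right.

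The deepest falls were in proliferation genes and in a few genes of the cell surface and matrix. RRM2 (ENSG00000171848, chr2:10120698-10131419, plus strand), the small subunit of ribonucleotide reductase that makes deoxynucleotides, was 139.7 and 136 FPKM under the control treatment and 22.9 and 19.95 FPKM under dipyridamole. Both treated libraries lay far below both controls, and RRM2 had the largest fall of the genes named, a mean difference of -2.63 (SE 0.20, adjusted p = 2.32e-19) on the log2 scale. THBS1 (chr15:39581079-39599466), which encodes the matrix protein thrombospondin 1, was 973 and 1189 FPKM under the control treatment and 206 and 148 FPKM under dipyridamole. Its treated levels lay well below both controls, with a mean difference of -2.62 (SE 0.27, adjusted p = 1.11e-13). CAVIN2, a coat protein of caveolae, was 65.8 and 66.6 FPKM under the control treatment and 9.95 and 10.4 FPKM under dipyridamole, and the 2 cell types gave nearly the same values (mean difference -2.59, SE 0.21, adjusted p = 1.71e-18). ANO2, a calcium-activated chloride channel, went from 5.85 and 6.62 FPKM to 0.557 and 0.396 FPKM, with no overlap between treatments (mean difference -2.29, SE 0.32, adjusted p = 7.01e-09). LMNB1, the nuclear lamina protein lamin B1, was 107 and 92.5 FPKM under the control treatment and 20.99 and 21.6 FPKM under dipyridamole, a fall of the same order (mean difference -2.17, SE 0.20, adjusted p = 3.96e-15). CDKN2C, an inhibitor of the G1 kinases CDK4 and CDK6, also fell, from 41.3 and 35.2 FPKM to 5.46 and 6.80 FPKM (mean difference -2.46, SE 0.22, adjusted p = 4.77e-16). The other 9 of the 15 largest falls were KIF20A, MKI67, TOP2A, CCNA2, PCLAF, ASF1B, ZWINT, ANLN and GTSE1, all of them genes of replication, chromatin assembly or division. All 15 kept an adjusted p under 0.05 in the 8-library fit and with each library left out of it.

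**Figure D2:**
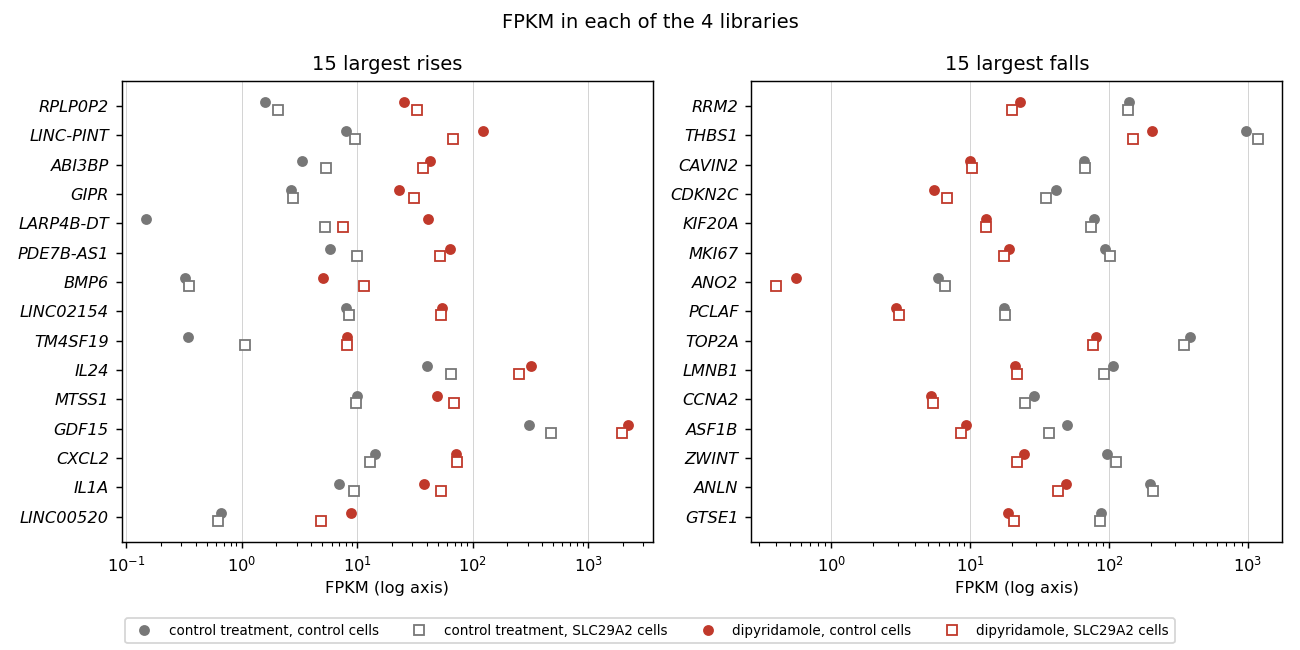
FPKM on a log axis in each of the 4 libraries for the 15 genes with the largest rise (left) and the 15 with the largest fall (right); grey marks are the control treatment, red marks dipyridamole, filled circles control cells and open squares SLC29A2 cells. Red and grey marks are separate for each gene, and for LARP4B-DT the squares of SLC29A2 cells lie close together, at 5.27 and 7.59 FPKM.

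Mitotic genes fell throughout. All 30 members of the list were measured, all 30 fell ([29, 28, 30, 27]), none rose by limma or by voom, and 29 were at least 2-fold lower in both cell types, with a median difference of -1.78 where the median over all genes was 0.02. The members ranged from -2.46 for KIF20A, a kinesin of the central spindle, to -1.25 for CKS2, a small partner of cyclin-dependent kinases. KIF20A was 77.7 and 74.7 FPKM under the control treatment and 13.01 and 13.1 FPKM under dipyridamole, with nearly the same values in the 2 cell types. MKI67, whose protein Ki-67 marks cycling cells, was 93.2 and 101 FPKM under the control treatment and 19.1 and 17.4 FPKM under dipyridamole (mean difference -2.35, SE 0.20, adjusted p = 8.41e-17). CCNB1, the cyclin of mitotic entry, was 232 and 226 FPKM under the control treatment and 63.2 and 69.7 FPKM under dipyridamole (mean difference -1.77, SE 0.21, adjusted p = 1.14e-10). For each of the 3 genes both treated libraries lay below both controls. TOP2A and CCNA2, which untangle chromosomes and drive S phase and G2, fell too, with mean differences of -2.20 and -2.14.

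DNA replication genes fell with them: 30 of 30 measured members passed the test ([25, 26, 25, 22]), 25 were at least 2-fold lower in both cell types, and the median difference was -1.37. PCNA, the sliding clamp of the replication fork, was 128 and 124 FPKM under the control treatment and 35.1 and 33.8 FPKM under dipyridamole, with both treated libraries far below either control. The mean difference was -1.84 (SE 0.21, adjusted p = 5.25e-12). CDC6, which loads the replicative helicase, was 42.9 and 43.4 FPKM under the control treatment and 12.7 and 9.73 FPKM under dipyridamole (mean difference -1.86, SE 0.21, adjusted p = 1.42e-11). MCM4, a subunit of that helicase, was 143 and 158 FPKM under the control treatment and 43.99 and 34.5 FPKM under dipyridamole (mean difference -1.92, SE 0.21, adjusted p = 1.72e-12). E2F1, one of the factors that read the motif printed above, was 39.6 and 42.4 FPKM under the control treatment and 15.1 and 13.6 FPKM under dipyridamole (mean difference -1.45, SE 0.21, adjusted p = 3.49e-08). The smallest falls were those of the polymerase subunit POLE2 (-0.93) and the primase PRIM1 (-0.94). POLE2 did not pass in the 8-library fit (adjusted p = 0.0631), nor with any single library left out of it. PRIM1 lost its call on leaving out either SLC29A2-cell library. Of 14 measured histone genes 4 fell ([3, 2, 3, 3]; median -0.41), among them H2AX, H2AZ1 and H3-3A. The share of all genes that fell was 7.82%. H2AZ1, a replacement histone, was 159 and 155 FPKM under the control treatment and 58.9 and 64.8 FPKM under dipyridamole (mean difference -1.33, SE 0.21, adjusted p = 3.88e-07). H2AX lost its call on leaving out the control-cell dipyridamole library (adjusted p = 0.0558). In bulk samples, fewer cycling cells and less RNA of these genes per cell cannot be told apart.

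Nucleotide synthesis followed the replication genes in part. Of 27 measured purine and pyrimidine genes, 10 fell ([5, 6, 5, 6]) and none rose by limma or by voom (median -0.42). Of all genes tested, 7.82% fell. The larger falls in the list were in enzymes that feed deoxynucleotides to S phase, several of which also stand in the replication list: RRM2, TYMS, RRM1 and DTYMK. TYMS, which makes dTMP, was 16.99 and 16.5 FPKM under the control treatment and 5.87 and 4.18 FPKM under dipyridamole (mean difference -1.57, SE 0.24, adjusted p = 1.57e-07). DTYMK, the next kinase on that route, was 154 and 145 FPKM under the control treatment and 66.9 and 63.6 FPKM under dipyridamole (mean difference -1.18, SE 0.21, adjusted p = 6.54e-06). RRM1, the large subunit of ribonucleotide reductase, was 83.7 and 73.2 FPKM under the control treatment and 30.95 and 28.7 FPKM under dipyridamole (mean difference -1.36, SE 0.20, adjusted p = 9.00e-08). In each of them the treatments were separate and the cell types close. Among the enzymes of de novo synthesis, PPAT, the first committed step of the purine route, fell (mean difference -0.66), as did PAICS, a later step (-0.63), and CTPS1, which makes CTP (-0.86). PPAT lost its call on leaving out any of the 4 (adjusted p 0.0911 to 0.201). PAICS lost it on leaving out any of the 4 (adjusted p 0.0634 to 0.106). CTPS1 lost it on leaving out the SLC29A2-cell control library (adjusted p = 0.0596). CAD (-0.34), DHODH (-0.21), UMPS (-0.48), GART (-0.01), PFAS (-0.31), ATIC (-0.28) and GMPS (-0.47) did not pass.

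The strongest rises were in stress genes, cytokines and non-coding transcripts. GDF15 (ENSG00000130513, chr19:18374731-18389176, plus strand), a secreted stress hormone and ATF4 target, was 309 and 476 FPKM under the control treatment and 2236 and 1985 FPKM under dipyridamole. Both treated libraries lay far above both controls, and it rose by 2.45 (SE 0.32, adjusted p = 8.89e-10). RPLP0P2, a pseudogene with a near-identical parent gene, had the largest rise, from 1.58 and 2.06 FPKM to 25.4 and 32.7 FPKM (mean difference 3.41, SE 0.25, adjusted p = 3.36e-21). Its level is uncertain because reads of the parent could be assigned to it. RPLP0 itself differed by 0.09 and did not pass. GIPR, the receptor of the gut hormone GIP, was 2.65 and 2.77 FPKM under the control treatment and 23.1 and 31.2 FPKM under dipyridamole, with no overlap (mean difference 2.91, SE 0.24, adjusted p = 6.06e-18). ABI3BP, a matrix protein, was 3.32 and 5.36 FPKM under the control treatment and 42.8 and 36.9 FPKM under dipyridamole (mean difference 2.96, SE 0.23, adjusted p = 2.25e-19). MTSS1, an actin-binding protein of the cell membrane, was 9.94 and 9.70 FPKM under the control treatment and 49.4 and 68.8 FPKM under dipyridamole (mean difference 2.45, SE 0.21, adjusted p = 5.44e-17). BMP6, a ligand that in liver signals iron load, went from 0.323 and 0.351 FPKM to 5.09 and 11.4 FPKM (mean difference 2.70, SE 0.32, adjusted p = 2.81e-11). GDF15, RPLP0P2, GIPR, ABI3BP, MTSS1 and BMP6 kept their calls with each library left out. MTSS1 overlaps NDUFB9 on the opposite strand. TM4SF19, a tetraspan membrane protein that overlaps the antisense gene TM4SF19-AS1, went from 0.345 and 1.06 FPKM to 8.19 and 8.13 FPKM and lost the call on leaving out the SLC29A2-cell dipyridamole library (adjusted p = 0.0534).

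Long non-coding RNAs made up 5 of the 15 largest rises. LINC-PINT (chr7:130876809-130913310, minus strand), a p53-linked transcript, was 7.94 and 9.66 FPKM under the control treatment and 122 and 66.9 FPKM under dipyridamole and rose by 3.23 (SE 0.22, adjusted p = 3.95e-23). LINC02154 was 8.06 and 8.42 FPKM under the control treatment and 54.2 and 53.6 FPKM under dipyridamole (mean difference 2.57, SE 0.21, adjusted p = 6.06e-18), nearly the same in the 2 cell types, and it alone of the 5 kept its call with each library left out. PDE7B-AS1, an antisense transcript whose reads are uncertain without strand, was 5.78 and 9.86 FPKM under the control treatment and 64.1 and 52.5 FPKM under dipyridamole (mean difference 2.78, SE 0.22, adjusted p = 3.67e-19). LINC-PINT lost the call on leaving out either dipyridamole library (adjusted p = 0.0716 and 0.085). PDE7B-AS1 lost it on leaving out either dipyridamole library (adjusted p = 0.0759 and 0.0882). LINC00520, from 0.666 and 0.619 FPKM to 8.91 and 4.90 FPKM, lost it on leaving out any library but the SLC29A2-cell control one (adjusted p = 0.0534, 0.0877 and 0.0675). LARP4B-DT was at 1 read in the control-cell control library and had differences of 5.20 and 0.45, and its adjusted p was 0.215 in the 8-library fit. NEAT1, the scaffold of paraspeckles, was 185 and 254 FPKM under the control treatment and 617 and 465 FPKM under dipyridamole (mean difference 1.30, SE 0.25, adjusted p = 4.03e-05). It too did not pass in the 8-library fit (adjusted p = 0.098). The control-cell dipyridamole library, which held the larger share of non-coding reads, had the higher level of LINC-PINT, PDE7B-AS1, LINC00520, LARP4B-DT and NEAT1, and the part of that share in these values was not tested.

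ATF4 targets were the list with the broadest rise: 22 of 33 measured members rose, where 8.42% of all genes did. In this list 10 were at least 2-fold higher in both cell types, and the median was 0.84. ATF4 itself, the transcription factor of the integrated stress response, was 154 and 143 FPKM under the control treatment and 238 and 265 FPKM under dipyridamole (mean difference 0.75, SE 0.23, adjusted p = 0.0123). DDIT3, which encodes the stress factor CHOP, was 7.78 and 10.2 FPKM under the control treatment and 35.3 and 36.4 FPKM under dipyridamole (mean difference 1.89, SE 0.22, adjusted p = 1.63e-11). PPP1R15A, which restores translation by dephosphorylating eIF2alpha, was 72.3 and 85.4 FPKM under the control treatment and 342 and 274 FPKM under dipyridamole (mean difference 1.95, SE 0.22, adjusted p = 1.21e-11). Control and treated libraries did not overlap for any of these. CHAC1, which breaks down glutathione, was 8.99 and 8.31 FPKM under the control treatment and 27.7 and 54.9 FPKM under dipyridamole (mean difference 2.06, SE 0.22, adjusted p = 1.72e-12). TRIB3, a pseudokinase that restrains ATF4 signalling, was 39.03 and 29.05 FPKM under the control treatment and 104 and 176 FPKM under dipyridamole (mean difference 1.97, SE 0.21, adjusted p = 1.72e-12). Both were higher under dipyridamole in SLC29A2 cells than in control cells, a difference that was not tested. Of the amino acid enzymes, PHGDH, the first step of serine synthesis, was 33.3 and 18.8 FPKM under the control treatment and 73.5 and 96.5 FPKM under dipyridamole (mean difference 1.71, SE 0.21, adjusted p = 2.52e-10). ASNS, asparagine synthetase, was 2.82 and 2.96 FPKM under the control treatment and 7.92 and 8.01 FPKM under dipyridamole (mean difference 1.21, SE 0.27, adjusted p = 4.13e-04).

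Of the 6 tRNA charging enzymes of the same list 5 rose, GARS1 by 1.12, AARS1 by 0.91, CARS1 by 0.90, SARS1 by 0.77 and WARS1 by 0.57, and NARS1 (0.40) did not pass. CARS1 kept its call with each library left out. GARS1 lost it on leaving out either SLC29A2-cell library (adjusted p = 0.0544 and 0.065). AARS1 lost it on leaving out any of the 4 (adjusted p 0.0645 to 0.207). SARS1 lost it on leaving out any of the 4 (adjusted p 0.0591 to 0.158). WARS1 lost it on leaving out any of the 4 (adjusted p 0.0937 to 0.241). Of the amino acid carriers, SLC6A9 rose by 1.14 and SLC7A11 by 1.11, while SLC7A5 (0.04), SLC7A1 (0.11), SLC38A2 (-0.27), SLC3A2 (0.62) and SLC1A5 (0.47) did not pass. SLC6A9 lost its call on leaving out the SLC29A2-cell dipyridamole library (adjusted p = 0.0534). ATF5, a related factor, fell, from 26.6 and 30.9 FPKM to 16.6 and 15.5 FPKM (mean difference -0.80, SE 0.21, adjusted p = 0.00379). With single libraries left out, 14, 14, 14 and 9 members of the list rose. ATF5 lost its call on leaving out any of the 4 (adjusted p 0.0621 to 0.129). ATF4 lost it on leaving out any library but the control-cell dipyridamole one (adjusted p = 0.11, 0.105 and 0.102). PHGDH lost it on leaving out any library but the control-cell control one (adjusted p = 0.0519, 0.0543 and 0.128). ASNS lost it on leaving out the SLC29A2-cell dipyridamole library (adjusted p = 0.0562). GDF15, CHAC1, TRIB3, PPP1R15A, DDIT3 and SESN2 kept their calls in all of them.

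Of 22 measured genes of protein folding in the endoplasmic reticulum, 4 rose ([0, 0, 2, 1]) and 4 fell ([2, 3, 1, 1]), with a median of -0.32. Over all genes, 8.42% rose and 7.82% fell. The stress sensor ERN1 rose from 14.8 and 22.3 FPKM to 44.6 and 33.9 FPKM (mean difference 1.06, SE 0.21, adjusted p = 7.68e-05). EIF2AK3, HERPUD1 and XBP1 rose by 0.70, 0.72 and 0.78. XBP1 lost its call on leaving out any library but the SLC29A2-cell control one (adjusted p = 0.135, 0.0937 and 0.0519). EIF2AK3 and HERPUD1 lost theirs on leaving out any single one of the 4 libraries. SDF2L1, a secretory folding gene, fell from 141 and 152 FPKM to 60.6 and 77.3 FPKM (mean difference -1.08, SE 0.21, adjusted p = 3.89e-05). CRELD2 (mean difference -1.07, SE 0.20, adjusted p = 2.64e-05), PDIA4 (mean difference -0.95, SE 0.25, adjusted p = 0.00317) and MANF (mean difference -0.61) fell with it. HSPA5, the main chaperone BiP, was 415 and 482 FPKM under the control treatment and 569 and 554 FPKM under dipyridamole and did not pass (mean difference 0.33, SE 0.27, adjusted p = 0.476). With single libraries left out, SDF2L1 kept its call. ERN1 lost it on leaving out either control-cell library (adjusted p = 0.123 and 0.103). CRELD2 lost it on leaving out any library but the control-cell control one (adjusted p = 0.0682, 0.0719 and 0.0921). PDIA4 lost it on leaving out any library but the control-cell dipyridamole one (adjusted p = 0.06, 0.0762 and 0.0605). MANF lost it on leaving out any of the 4 (adjusted p 0.0809 to 0.307). Among 18 heat shock genes none passed by limma in either direction (median -0.19); 1 was higher and 4 lower at an unadjusted p under 0.05, voom called 1 lower, and 2 fell in the 8-library fit.

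**Figure D3:**
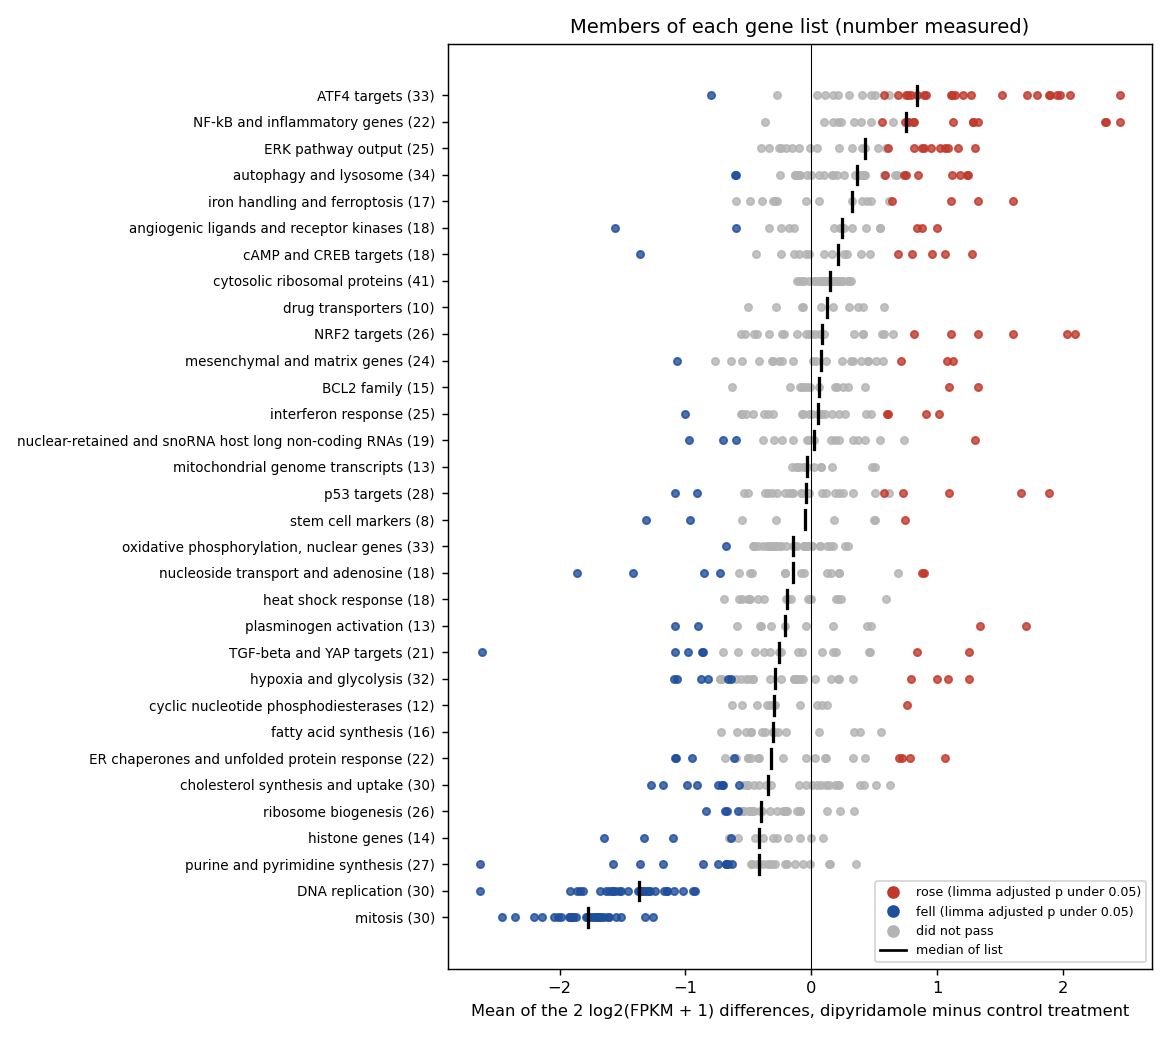
Mean of the 2 log2(FPKM + 1) differences (x axis, dipyridamole minus control treatment) for each measured member of the gene lists with 5 or more measured members, apart from cell type markers, ordered by median; red and blue dots passed limma at an adjusted p under 0.05, grey dots did not, and the black bar is the list's median. The DNA replication and mitosis lists lie wholly to the left at medians of -1.37 and -1.78, and the ATF4 list has the highest median, 0.84.

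NF-kB targets and inflammatory mediators were the second list of which most members rose: 13 of 22 measured, where 8.42% of all genes rose. In this list 5 were at least 2-fold higher in both cell types and none fell by limma or by voom, with a median of 0.75. IL24, a cytokine of the IL-10 family, was 40.3 and 65.5 FPKM under the control treatment and 323 and 254 FPKM under dipyridamole, with all treated values above all control values (mean difference 2.46, SE 0.22, adjusted p = 3.62e-16). IL1A, the alarmin interleukin 1 alpha, was 6.94 and 9.40 FPKM under the control treatment and 37.9 and 52.95 FPKM under dipyridamole (mean difference 2.34, SE 0.22, adjusted p = 1.41e-15). CXCL2, a neutrophil chemokine with close paralogs, was 14.1 and 12.9 FPKM under the control treatment and 71.3 and 73.6 FPKM under dipyridamole (mean difference 2.34, SE 0.21, adjusted p = 1.63e-16). CXCL8, another chemokine, was 12.7 and 18.4 FPKM under the control treatment and 46.9 and 32.1 FPKM under dipyridamole (mean difference 1.29, SE 0.22, adjusted p = 1.84e-06). BIRC3, an apoptosis inhibitor and NF-kB target, was 12.2 and 16.7 FPKM under the control treatment and 31.2 and 44.4 FPKM under dipyridamole (mean difference 1.32, SE 0.21, adjusted p = 5.16e-07). In all 4 the treated libraries were the higher ones. Of the NF-kB subunits, RELB rose by 1.12 and NFKB2 by 0.81, and RELA (0.39) and NFKB1 (-0.37) did not pass. RELB lost its call on leaving out either SLC29A2-cell library. NFKB2 lost its call on leaving out any library but the control-cell dipyridamole one. IL6 was 8.44 and 12.03 FPKM under the control treatment and 19.2 and 10.7 FPKM under dipyridamole, higher in treated control cells and not in treated SLC29A2 cells, and did not pass. With single libraries left out, 3, 3, 6 and 2 members rose. IL1A kept its call throughout. IL24 lost it on leaving out any library but the SLC29A2-cell control one (adjusted p = 0.0661, 0.105 and 0.0976). BIRC3 lost it on leaving out any library but the SLC29A2-cell control one (adjusted p = 0.0633, 0.0559 and 0.113). CXCL8 lost it on leaving out any library but the SLC29A2-cell control one (adjusted p = 0.165, 0.191 and 0.0903). CXCL2 lost it on leaving out any of the 4 (adjusted p 0.0596 to 0.163).

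Genes that report ERK signalling rose in part, 10 of 25 measured ([2, 4, 3, 1]) with none falling by limma or by voom (median 0.43). Of all genes tested, 8.42% rose. EGR1, an immediate-early factor, was 12.2 and 15.1 FPKM under the control treatment and 31.9 and 38.4 FPKM under dipyridamole (mean difference 1.30, SE 0.21, adjusted p = 8.41e-07). DUSP5, a nuclear ERK phosphatase, was 19.9 and 18.8 FPKM under the control treatment and 38.5 and 51.4 FPKM under dipyridamole (mean difference 1.16, SE 0.21, adjusted p = 7.95e-06). SPRY2, a feedback inhibitor of receptor kinase signalling, was 10.9 and 9.95 FPKM under the control treatment and 21.5 and 24.99 FPKM under dipyridamole (mean difference 1.09, SE 0.22, adjusted p = 8.95e-05). The treatments were separate for the 3 genes, while FOS, at 7.06 and 7.34 FPKM under the control treatment and 5.75 and 7.65 FPKM under dipyridamole, overlapped and did not pass. CCND1 (cyclin D1) did not pass (mean difference -0.40). EGR1 lost its call on leaving out any library but the control-cell control one (adjusted p = 0.141, 0.123 and 0.0756). DUSP5 lost it on leaving out the SLC29A2-cell dipyridamole library (adjusted p = 0.0603). SPRY2 lost it on leaving out any library but the control-cell dipyridamole one (adjusted p = 0.0811, 0.0677 and 0.129).

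A few antioxidant and iron genes rose strongly while most of their lists did not pass. Of 26 measured NRF2 targets, 6 rose ([4, 5, 5, 4]) and none fell by limma or by voom (median 0.08). Over all genes, 8.42% rose and 7.82% fell. HMOX1, haem oxygenase 1, was 27.7 and 22.5 FPKM under the control treatment and 83.7 and 143 FPKM under dipyridamole (mean difference 2.09, SE 0.21, adjusted p = 9.18e-14). OSGIN1, a growth inhibitor induced by oxidative stress, was 17.5 and 18.3 FPKM under the control treatment and 71.7 and 80.7 FPKM under dipyridamole (mean difference 2.03, SE 0.21, adjusted p = 9.57e-14). The ferritin chains, which store iron and have many pseudogene copies that can share reads, rose too. FTL was 1346 and 1336 FPKM under the control treatment and 3576 and 4655 FPKM under dipyridamole (mean difference 1.60, SE 0.42, adjusted p = 0.00271). FTH1 was 71.7 and 65.7 FPKM under the control treatment and 168 and 178 FPKM under dipyridamole (mean difference 1.32, SE 0.21, adjusted p = 5.70e-07). For these 4 genes the treated libraries were well above the controls. The classic glutathione genes GCLM (-0.43) and GCLC (-0.23) did not pass, nor did NFE2L2 (0.07), which encodes NRF2. In the iron list 4 of 17 rose ([2, 3, 3, 3]; median 0.33), the ferritins, SLC7A11 and ERFE. TFRC, the transferrin receptor, was 305 and 399.9 FPKM under the control treatment and 268 and 198 FPKM under dipyridamole and did not pass. OSGIN1 and FTH1 kept their calls with each library left out. HMOX1 lost its call on leaving out the SLC29A2-cell dipyridamole library (adjusted p = 0.0577). SLC7A11 lost it on leaving out either control-cell library (adjusted p = 0.0765 and 0.0621). ERFE lost it on leaving out any of the 4 (adjusted p 0.0552 to 0.166). FTL lost its call with no filter on low values.

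Autophagy and lysosome genes rose in 8 of 34 cases ([4, 5, 4, 5]) and fell in 2 ([0, 1, 0, 0]), with a median of 0.36. Over all genes, 8.42% rose and 7.82% fell. WIPI1, which acts at the forming autophagosome, was 12.2 and 9.12 FPKM under the control treatment and 26.1 and 26.6 FPKM under dipyridamole (mean difference 1.24, SE 0.22, adjusted p = 5.87e-06). MAP1LC3B, the membrane tag LC3B, was 42.1 and 39.1 FPKM under the control treatment and 91.4 and 94.8 FPKM under dipyridamole (mean difference 1.18, SE 0.21, adjusted p = 4.04e-06). SQSTM1, the cargo receptor p62, was 205 and 228 FPKM under the control treatment and 463 and 477 FPKM under dipyridamole (mean difference 1.12, SE 0.25, adjusted p = 3.48e-04). NPC1, which exports cholesterol from lysosomes, was 68.99 and 73.9 FPKM under the control treatment and 190.4 and 152 FPKM under dipyridamole (mean difference 1.24, SE 0.21, adjusted p = 3.05e-06). These 4 genes had no overlap between treatments and kept their calls with each library left out. The proton pump subunits ATP6V1A (-0.25), ATP6V1H (-0.11) and ATP6V1B2 (0.20) did not pass, and the acid lipase LIPA fell, with a mean difference of -0.61, and lost its call on leaving out any library but the control-cell dipyridamole one (adjusted p = 0.146, 0.238 and 0.24).

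Cholesterol genes were lower in part: 9 of 30 measured fell, where 7.82% of all genes did. None of the list rose by limma or by voom, and 1 was at least 2-fold lower in both cell types (median -0.34). ACAT2, which makes acetoacetyl-CoA, was 14.03 and 10.7 FPKM under the control treatment and 3.94 and 5.13 FPKM under dipyridamole (mean difference -1.27, SE 0.25, adjusted p = 5.08e-05). EBP, the sterol isomerase, was 80.3 and 84.8 FPKM under the control treatment and 43.4 and 43.6 FPKM under dipyridamole (mean difference -0.91, SE 0.20, adjusted p = 4.49e-04). SQLE, which oxidises squalene, was 43.04 and 40.7 FPKM under the control treatment and 47.1 and 50.4 FPKM under dipyridamole and did not pass (mean difference 0.21). HMGCS1 did not pass either (mean difference 0.22). With size factors 6 members fell. With single libraries left out, 1, 2, 4 and 3 members fell. EBP kept its call throughout, ACAT2 lost it on leaving out either control-cell library (adjusted p = 0.0717 and 0.0688). Of 16 fatty acid synthesis genes none passed by limma or by voom (median -0.31); 1 was higher and 3 lower at an unadjusted p under 0.05, and the 8-library fit called 1 in each direction.

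The transcripts of the transporters and phosphodiesterases on which dipyridamole acts were examined next. SLC29A1, the main equilibrative nucleoside transporter ENT1, was 109 and 127 FPKM under the control treatment and 77.2 and 64.9 FPKM under dipyridamole. It fell, with a mean difference of -0.73 (SE 0.21, adjusted p = 0.00823). The call was lost on leaving out any library but the control-cell dipyridamole one (adjusted p = 0.141, 0.171 and 0.216). SLC29A2 did not pass, with differences of -0.04 and 0.48, nor did SLC29A3, the lysosomal member, at -0.21. SLC29A4, a monoamine and adenosine carrier, was 3.71 and 2.59 FPKM under the control treatment and 4.63 and 6.79 FPKM under dipyridamole and did not pass (mean difference 0.69, SE 0.28, adjusted p = 0.0831). In the whole list of nucleoside and adenosine genes, 2 of 18 rose ([0, 0, 0, 0]) and 4 fell ([1, 2, 2, 1]), where 8.42% of all genes rose and 7.82% fell, with a median of -0.14. ADORA1, the A1 adenosine receptor, fell furthest, from 8.60 and 8.61 FPKM to 1.77 and 1.53 FPKM (mean difference -1.86, SE 0.28, adjusted p = 1.14e-07), and kept its call with each library left out. The A2B receptor gene ADORA2B (0.22) and NT5E, the ectoenzyme CD73 that makes adenosine (-0.21), did not pass. TK1, the S-phase thymidine kinase, was 243 and 192 FPKM under the control treatment and 65.7 and 97.96 FPKM under dipyridamole (mean difference -1.41, SE 0.22, adjusted p = 2.74e-07), a call that was lost on leaving out any library but the SLC29A2-cell control one (adjusted p = 0.172, 0.189 and 0.138). CDA and AMPD3, which deaminate cytidine and AMP, rose by 0.90 and 0.88. CDA lost its call on leaving out any of the 4 (adjusted p 0.0502 to 0.334). AMPD3 lost it on leaving out any of the 4 (adjusted p 0.0626 to 0.169).

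Of 12 measured phosphodiesterase genes 1 rose, where 8.42% of all genes did, and none fell by limma (median -0.30); voom called 1 lower, and 1 was lower at an unadjusted p under 0.05. The gene that rose was PDE2A, a cAMP and cGMP hydrolase stimulated by cGMP, at 6.03 and 4.71 FPKM under the control treatment and 10.4 and 9.09 FPKM under dipyridamole (mean difference 0.76, SE 0.25, adjusted p = 0.0243), and it lost the call on leaving out any of the 4 (adjusted p 0.14 to 0.191). PDE5A, the cGMP-specific enzyme, was 3.08 and 3.38 FPKM under the control treatment and 2.47 and 1.82 FPKM under dipyridamole (mean difference -0.43, SE 0.31, adjusted p = 0.383). PDE3B, inhibited by cGMP, was 5.15 and 6.27 FPKM under the control treatment and 3.31 and 3.32 FPKM under dipyridamole (mean difference -0.63, SE 0.28, adjusted p = 0.11). PDE1C, the most abundant of the family by FPKM, was 80.4 and 77.9 FPKM under the control treatment and 67.3 and 58.9 FPKM under dipyridamole (mean difference -0.32, SE 0.21, adjusted p = 0.315). Neither PDE5A, PDE3B nor PDE1C passed. PDE4A, PDE12, PDE7A and PDE6D lay between -0.55 and -0.29, PDE10A, PDE6B, PDE8A and PDE4C between -0.09 and 0.12. Of 18 cAMP and CREB targets 5 rose ([2, 2, 1, 0]) and 1 fell ([1, 1, 1, 1]), with a median of 0.21. RGS2, which damps G protein signalling, was 15.4 and 14.4 FPKM under the control treatment and 4.93 and 5.51 FPKM under dipyridamole and fell (mean difference -1.36, SE 0.24, adjusted p = 6.35e-06), with its call kept throughout. JUNB rose from 15.9 and 14.8 FPKM to 29.9 and 49.8 FPKM (mean difference 1.28, SE 0.21, adjusted p = 1.78e-06) and lost the call on leaving out either SLC29A2-cell library (adjusted p = 0.0679 and 0.0572). AREG (1.06), CREB3L1 (0.96), NR4A1 (0.80) and ATF3 (0.69) rose too. AREG lost its call on leaving out any of the 4 libraries. CREB3L1 lost its call on leaving out any library but the control-cell control one. NR4A1 lost its call on leaving out any library but the control-cell dipyridamole one. ATF3 lost its call on leaving out any library but the SLC29A2-cell control one. Among other targets of CREB, FOS, FOSB (-0.04), NR4A2 (-0.02) and PER1 (0.47) did not pass.

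Growth arrest and death genes were followed through the targets of p53. Of 28 measured p53 targets 5 rose ([3, 4, 3, 3]) and 2 fell ([1, 1, 1, 1]), where 8.42% of all genes rose and 7.82% fell, with a median of -0.04. GADD45A, a stress-induced arrest gene, was 346 and 402 FPKM under the control treatment and 1195 and 1172 FPKM under dipyridamole (mean difference 1.66, SE 0.29, adjusted p = 4.49e-06). SESN2, which is also an ATF4 target, was 16.01 and 13.6 FPKM under the control treatment and 49.5 and 66.5 FPKM under dipyridamole (mean difference 1.89, SE 0.21, adjusted p = 4.80e-12). BBC3, the death inducer PUMA, was 14.5 and 13.1 FPKM under the control treatment and 29.2 and 31.9 FPKM under dipyridamole (mean difference 1.09, SE 0.21, adjusted p = 4.46e-05). These 3 kept their calls with each library left out. CDKN1A, the p21 inhibitor, was 204 and 176 FPKM under the control treatment and 273 and 311 FPKM under dipyridamole (mean difference 0.62, SE 0.23, adjusted p = 0.0576) and did not pass, nor did MDM2 (mean difference -0.34). The repair gene DDB2 fell from 54.1 and 51.2 FPKM to 30.2 and 19.5 FPKM (mean difference -1.08, SE 0.21, adjusted p = 2.72e-05), also with each library left out. In the BCL2 family, 2 of 15 rose ([1, 1, 2, 1]), BBC3 and BIRC3 (median 0.06).

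In glucose metabolism, 4 of 32 hypoxia and glycolysis genes rose ([2, 2, 2, 1]) and 6 fell ([0, 2, 2, 1]), against 8.42% and 7.82% of all genes, with a median of -0.28. SLC2A3, a high-affinity glucose transporter, was 53.9 and 54.6 FPKM under the control treatment and 149 and 115 FPKM under dipyridamole (mean difference 1.25, SE 0.21, adjusted p = 1.46e-06) and kept its call throughout. LDHA, lactate dehydrogenase A, was 1437 and 1303 FPKM under the control treatment and 657 and 648 FPKM under dipyridamole (mean difference -1.07, SE 0.32, adjusted p = 0.0108) and lost its call on leaving out the control-cell control library (adjusted p = 0.0599). VEGFA, the main angiogenic ligand, was 69.1 and 66.1 FPKM under the control treatment and 139 and 132 FPKM under dipyridamole (mean difference 1.00, SE 0.21, adjusted p = 1.56e-04), at nearly the same level in the 2 cell types. It lost its call on leaving out any library but the SLC29A2-cell control one (adjusted p = 0.0652, 0.054 and 0.0863). KIT, a receptor kinase expressed at a low level, fell from 4.29 and 5.15 FPKM to 1.17 and 0.721 FPKM (mean difference -1.56, SE 0.31, adjusted p = 7.03e-05) and lost its call on leaving out either SLC29A2-cell library (adjusted p = 0.0577 and 0.0839). In the list of angiogenic ligands and receptor kinases 3 of 18 rose ([0, 1, 2, 0]) and 2 fell ([1, 1, 0, 0]), with a median of 0.24.

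Matrix, clotting and cytoskeletal genes gave single large changes. The counts of their lists stand beside 8.42% of all genes that rose and 7.82% that fell. Among 21 TGF-beta and YAP targets 5 fell ([3, 3, 1, 1]), THBS1, CCN2, F3, TGFBR1 and ID3, and 2 rose ([1, 0, 0, 0]), LTBP2 and ANKRD1, with a median of -0.25. COL6A1 was 179.8 and 177 FPKM under the control treatment and 363 and 395 FPKM under dipyridamole (mean difference 1.08, SE 0.24, adjusted p = 3.21e-04). COL6A2, its partner chain, was 207 and 200.1 FPKM under the control treatment and 455 and 436 FPKM under dipyridamole (mean difference 1.13, SE 0.24, adjusted p = 2.52e-04). Both stand in the list of 24 mesenchymal genes, of which 3 rose ([2, 2, 2, 3]) and 1 fell ([0, 1, 0, 0]; median 0.08). Among 13 plasminogen and clotting genes 2 rose ([2, 2, 2, 2]) and 2 fell ([0, 1, 0, 1]; median -0.21). SERPINB2, the inhibitor PAI-2, was 40.2 and 68.9 FPKM under the control treatment and 161 and 189.5 FPKM under dipyridamole (mean difference 1.71, SE 0.21, adjusted p = 2.10e-10). THBD, thrombomodulin, was 3.72 and 4.21 FPKM under the control treatment and 10.4 and 12.9 FPKM under dipyridamole (mean difference 1.34, SE 0.25, adjusted p = 2.16e-05). COL6A1, COL6A2, SERPINB2 and THBD kept their calls with each library left out. CCN2 lost its call on leaving out either SLC29A2-cell library (adjusted p = 0.174 and 0.198). F3 lost it on leaving out any of the 4 (adjusted p 0.0673 to 0.333). LTBP2 lost it on leaving out any library but the control-cell control one (adjusted p = 0.0519, 0.0619 and 0.105). KRT18, a keratin of simple epithelia, was 810.3 and 699 FPKM under the control treatment and 182 and 204 FPKM under dipyridamole (mean difference -1.96, SE 0.26, adjusted p = 1.57e-09). Its partner KRT8, which overlaps KRT18 on the opposite strand, was 1903 and 1645 FPKM under the control treatment and 537 and 719 FPKM under dipyridamole (mean difference -1.51, SE 0.33, adjusted p = 2.75e-04). Of 12 epithelial markers 6 passed the filter, among them the keratins KRT8, KRT18, KRT19 and KRT7. The summed level of the 12 was 2820 and 2430 FPKM in controls and 864 and 1040 FPKM under dipyridamole. KRT8 and KRT18 made up most of it. KRT19 was 67.9 and 31.2 FPKM in controls and 71.6 and 81.3 FPKM under dipyridamole. EPCAM and CDH1 stayed under 1 FPKM, and GRHL2 was listed at 0. KRT18 kept its call with each library left out, and KRT8 lost it on leaving out any library but the SLC29A2-cell control one (adjusted p = 0.0715, 0.0666 and 0.0601). KRT19 rose by 0.71 and lost its call on leaving out any of the 4 (adjusted p 0.153 to 0.751). Fibroblast markers summed to 131 and 132 FPKM in controls and 88.5 and 82.5 FPKM under dipyridamole, with 1 of 6 measured falling, THY1 (mean difference -0.96, SE 0.21, adjusted p = 2.05e-04). THY1 made up most of that sum, at 93.7 and 98.8 FPKM in controls and 50.9 and 47.1 FPKM under dipyridamole. Of the 6 measured, 3 were lower and 2 higher in both cell types. The part of other cells in these values was not tested.

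In the basic machinery, none of 41 cytosolic ribosomal protein genes passed by limma, by voom or at an unadjusted p under 0.05, with values between -0.11 (RPL30) and 0.32 (RPL10) and a median of 0.14. None of 13 mitochondrial genome transcripts passed by limma or by voom (median -0.03), and 1 was higher at an unadjusted p under 0.05. Their median was 0.46 in control cells and -0.44 in SLC29A2 cells, the same direction as the shares of mitochondrial reads given above. In the nuclear respiratory chain list 1 of 33 fell, SDHA (mean difference -0.68, SE 0.21, adjusted p = 0.0129). The list's median was -0.14, and SDHA lost the call on leaving out any of the 4 (adjusted p 0.053 to 0.104). Of 26 ribosome biogenesis genes 4 fell ([0, 1, 0, 0]; median -0.40), NCL, NOP56, DKC1 and NOLC1, where 7.82% of all genes fell. In the 8-library fit 7 of them fell, and 12 were lower at an unadjusted p under 0.05. NCL, which encodes nucleolin, was 391 and 393 FPKM under the control treatment and 223 and 216 FPKM under dipyridamole and lost its call on leaving out any library but the control-cell dipyridamole one (adjusted p = 0.0802, 0.0576 and 0.0616). None of 10 drug transporters passed by limma or by voom (median 0.12), and 1 was lower at an unadjusted p under 0.05. In the interferon list of 25, 4 rose ([1, 2, 1, 1]) and 1 fell ([0, 0, 0, 0]; median 0.05). Over all genes, 8.42% rose and 7.82% fell, shares that also stand beside the lists named next. HLA-B, an antigen-presenting molecule, was 124 and 107 FPKM under the control treatment and 254 and 216 FPKM under dipyridamole (mean difference 1.01, SE 0.22, adjusted p = 2.93e-04), a gene with close paralogs. Of 8 measured stem cell markers 1 rose ([0, 0, 1, 1]) and 2 fell ([2, 2, 2, 2]; median -0.05). SOX9, a progenitor transcription factor, was 29.1 and 26.1 FPKM under the control treatment and 10.1 and 10.9 FPKM under dipyridamole (mean difference -1.31, SE 0.22, adjusted p = 1.46e-06). Of 19 nuclear-retained and snoRNA host RNAs 1 rose, NEAT1, which did not pass with any single one of the 4 libraries left out (adjusted p 0.0844 to 0.4), and 3 fell ([0, 0, 0, 0]), with a median of 0.02.

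The 4 libraries that also received sorafenib, a kinase inhibitor, hold a separate measurement of the dipyridamole response, since both drugs against sorafenib alone shares no library with the comparison above. It is given without a test. In it, 371 genes were at least 2-fold higher in both cell types (2.71%) and 247 at least 2-fold lower (1.81%). Of the 247 genes 2-fold higher with dipyridamole alone, 206 (83.4%) were higher in both pairs with sorafenib present, where 43% of all genes were, and 99 were at least 2-fold higher, which is 40.1% of the 247 and 26.7% of the 371. Of the 308 genes 2-fold lower, 294 (95.5%) were lower in both pairs, where 27.1% of all genes were, and 132 were at least 2-fold lower, 42.9% of the 308 and 53.4% of the 247. All 30 mitosis genes and 28 of 30 replication genes were lower in both pairs, with medians of -1.53 and -1.34 for mitosis and -1.12 and -1.09 for replication, where the medians over all genes were 0.18 in control cells and 0.02 in SLC29A2 cells. RRM2 differed by -2.60 and -2.85 and KIF20A by -2.55 and -2.33. ATF4 targets had medians of 0.24 and 0.46, with 19 of 33 higher in both pairs, and NF-kB genes 0.31 and -0.04, with 11 of 22. IL1A differed by 0.52 and 0.00 with sorafenib present, where the differences without it were 2.29 and 2.38, and IL24 by 2.20 and 0.19 against 2.97 and 1.94. SERPINB2 differed by 0.03 and -0.66 against 1.97 and 1.45. Whether any of these pairs of differences differ from each other was not tested.

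**Figure D4:**
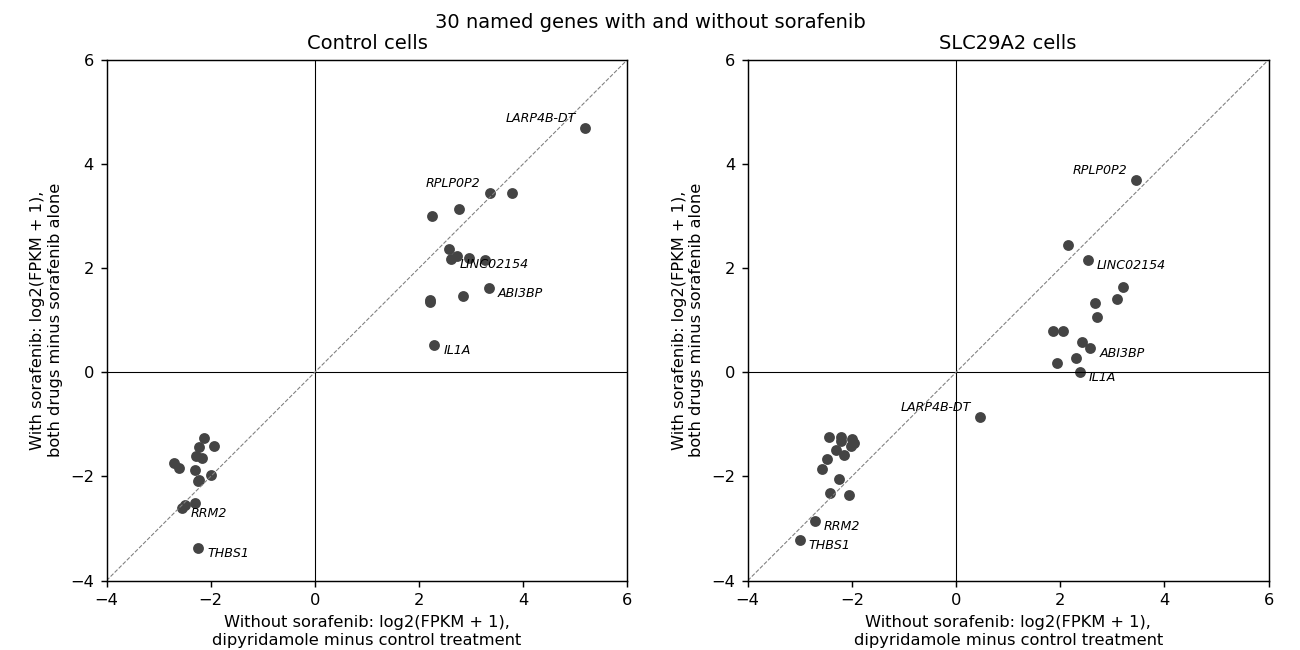
The 30 genes with the largest called rises and falls, plotted as log2(FPKM + 1) differences without sorafenib (x axis, dipyridamole minus control treatment) and with it (y axis, both drugs minus sorafenib alone), control cells left and SLC29A2 cells right; the dashed line marks equal values. The 15 genes that fell lie in the lower left in both panels, and among the 15 that rose IL1A lies near 0 on the y axis in SLC29A2 cells and LARP4B-DT below it.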

How the data were processed

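Poly(A)-selected RNA of 8 SK-Hep1 samples, 1 per condition, was sequenced after NEBNext Ultra RNA library preparation, per the labels. The authors deposited FPKM values per gene, with 1 table per sample; GRCh38.p12, edgeR, HTSeq 0.6.1 and TopHat2 2.0 are listed, with no role, in the submitters' processing notes. Strand is not stated, so reads of genes that overlap on opposite strands may be mixed. Symbols, classes and positions came from GENCODE 29 (GRCh38), which matched 58039 of 58302 genes. FPKM times the rounded mean transcript length gave whole reads for 91.0% to 91.3% of values at a tolerance of 0.01, and library totals of 14070000 to 16690000 reads.

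Genes that averaged 1 FPKM or more in these libraries were taken as log2(FPKM + 1), which understates the change of low genes, and fitted with limma 3.58.1 in R 4.3.3 (cell type as block, variance trend, two-sided, Benjamini-Hochberg over all 13674 genes, threshold 0.05). The scripts were tested on simulated data, where a limit on false calls was set only for genes of at least 20 reads on average. Nothing says that samples came from separate cultures, so the spread between them may be technical. The p-values rest almost wholly on the spread shared across genes. They measure no spread between repeats of a condition, since each condition is 1 library. "Rose" and "fell" mean past this test. Members, 37 gene lists and tests were chosen with earlier results of these data known. Named are the 15 largest mean differences per direction among called genes of one sign in both cell types, without small RNA classes and genes lacking a symbol, up to 4 members per list, and all measured SLC29 and phosphodiesterase genes; other members are named by their role or as the ends of a range and were chosen after their values were seen. Promoters are from RefSeq (GRCh38.p14). Alternatives were another pseudocount and filters, size factors, no block, no trend, voom on recovered reads, the 8-library fit, each library left out of that fit, and, added after simulated data showed false calls in genes of few reads, at least 20 reads on average. Leaving 1 library out of the 4-library fit leaves no residual degree of freedom. Values of some list members are not reported here.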

Additional observations from a re-analysis of the deposited data

Results flagged for a closer look

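AC024060.1, an antisense gene, moved at least 2-fold in opposite directions in the 2 cell types, by 1.19 in control cells and -1.45 in SLC29A2 cells on the log2(FPKM + 1) scale. It was 1.58 and 5.13 FPKM under the control treatment and 4.89 and 1.25 FPKM under dipyridamole, at 24 reads per library on average. The difference between the cell types was not tested, since each condition is 1 library. It was the only such gene with at least 20 reads on average among 17, of which 15 belong to small RNA classes.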

How the results depend on the processing

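The counts of 1152 genes that rose and 1069 that fell stayed within 1.5 times with a pseudocount of 0.1 (982 and 943), a mean of at least 5 FPKM (1012 and 1032), size factors (1143 and 1168), no variance trend (863 and 760), voom on recovered reads (1182 and 1116), at least 20 reads on average (1221 and 1128) and the 8-library fit (1032 and 1104). Without the cell type block, which pairs the libraries by genotype, 1262 rose and 1287 fell. With no filter on low values the counts were 457 and 481, and the cause was not tested. With single libraries left out of the 8-library fit, 184 to 417 genes rose and 300 to 535 fell; in these fits the lone library of an arm is assumed to vary like the others. The genes at least 2-fold higher in both cell types numbered 410 with a pseudocount of 0.1, against 247 with 1, which damps low levels more; the lower ones ranged from 273 to 417 over the alternatives. Over the libraries left out, 9 to 14 ATF4 targets rose and 0 fell, 22 to 26 replication and 27 to 30 mitosis members fell, and 2 to 6 NF-kB members rose. No named gene changed direction while called. Of 116 named genes with a call, 57 kept it in every setting run, 58 lost it with at least 1 library left out and 33 in at least 1 other setting. Counts per gene rest on 14070000 to 16690000 reads per library, and 992 of the 13674 genes had under 20 reads on average. Such genes made up 95 of the 1152 that rose and 47 of the 1069 that fell.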
